A study of Drosophila melanogaster with 12 samples.

Results

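The GATA factors of Drosophila are transcription factors that bind GATA sequences in DNA through zinc fingers, and the family measured here has 5 members, pannier (pnr), serpent (srp), grain (grn), GATAe and GATAd. The sixth gene is u-shaped (ush), which encodes the cofactor of the FOG type that binds GATA factors and in flies holds back the activity of Pannier. All 6 genes were chosen by name among the 11979 named genes of the array, each was represented by 1 probe, and all 6 had enough ratios to be fitted. The family was singled out because pnr was higher in the prospero mutant, so the differences between mutant and wildtype below are descriptions without a test.

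The RNA came from pools of 50 to 100 neuroblasts and ganglion mother cells, the daughter cells that neuroblasts bud off, taken from the ventral nerve cord of stage 11 embryos that had developed at 25 degrees C. Each of 12 spotted arrays set 1 such pool against a reference made from whole w1118 embryos of stages 10 to 12. The 6 arrays called wildtype held cells of pros17/TM3-KrGFP embryos, which carry the prospero allele over a balancer of chromosome 3, and the 6 mutant arrays held cells of pros17/pros17 embryos. No group was free of the pros17 allele. Cells were in Cy3 on replicates 1 to 3 of each group and in Cy5 on replicates 4 to 6. Whether the pools of one group came from different embryos is not stated, and a p-value therefore covers just the variation among these pools, which may be partly technical.

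Pannier acts in the dorsal ectoderm, the amnioserosa and the heart-forming mesoderm, downstream of the Dpp signal, and in the thorax it drives proneural genes together with cofactors. Serpent is needed for blood cells, fat body and endoderm, and GATAe acts in the midgut after Serpent. Grain is the member best known from the nervous system, where it acts in motor neurons and their axon pathfinding. In the gene table of the Release 6 assembly, srp, GATAe and pnr follow each other on chromosome arm 3R with 0 protein-coding genes between neighbours. The gene grn lies elsewhere on 3R, and GATAd and ush lie on 2L.

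Values are log2 ratios of cells over reference, so 0 means equal signal, and the sign rests on a likely but unstated direction. Were the direction the other way, every sign, rank and order below would turn. Each array gave 8421 to 10030 ratios, with medians from -0.12 to 0.51. The direction was read from the prospero transcript, given below, and from the list of epidermal, tracheal and amnioserosa markers. The median of that list lay between -3.59 and -1.72 on all 12 arrays, as a whole-embryo reference would give. Gut and yolk markers had the opposite sign, with a list median over 0 in all 6 wildtype and 4 of 6 mutant arrays. Just 2 of these markers were tested. In wildtype and mutant hkb had means of 1.65 and 1.1, and fkh of -1.47 and -1.54. The longer endoderm and midgut list, used further below, had a median ratio of -1.12. Of its 8 tested genes 6 were below and 1 above the reference at a limma adjusted p under 0.05. For hemocyte and fat body genes these counts were 11 and 5 of 18, and for cardiac mesoderm genes 6 and 1 of 8. The neuroblast and ganglion mother cell list had a median above 0 on 3 wildtype and 6 mutant arrays, and dpn, a neuroblast repressor, had wildtype ratios of 1.97 ± 1.31 and mutant ratios of 4.03 ± 0.38 (SD, n = 6 each). Other genes of that list went the other way. In wildtype klu, mira, insc, sna, esg and grh had means below 0, from -1.78 (grh) to -0.35 (sna). In the mutant esg (-1.85) and pros (-2.99) did. The prospero transcript checks the labels and the direction together and not each alone. It was above 0 on all wildtype arrays (0.88 to 3.29) and below 0 on all mutant arrays (-3.95 to -2.13). The limma difference was -5.16 (adjusted p = 5.68e-05). The two-sided exact permutation p over 924 splits was 0.00216, the smallest that these splits allow.

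The transcript of pnr was below the whole-embryo reference in every sample and less so in the mutant. Its wildtype ratios had a lowest value of -5.41, a median of -4.20 and a highest value of -2.45, and its mutant ratios had a lowest value of -3.19, a median of -1.80 and a highest value of -0.83. The groups overlapped, since mutant replicates 3 (-2.65) and 5 (-3.19) lay below wildtype replicate 3 (-2.45), while the other mutant samples were above all wildtype samples. The group means were -4.13 ± 0.99 and -1.93 ± 0.86 (SD, n = 6 each), and the fitted difference of 2.20 (SE 0.493) on the log2 scale corresponds to 4.58-fold. It ranked 38 among the 8165 rows ordered from the most raised to the most lowered in the mutant. The difference was 1.37 on the arrays with Cy3 cells and 3.02 on those with Cy5 cells. Most of that gap lay in the wildtype samples, whose mean was -3.45 ± 0.88 in Cy3 and -4.80 ± 0.56 in Cy5 (SD, n = 3 each), against -2.08 ± 0.50 and -1.78 ± 1.24 in the mutant. The difference of the difference was 1.65 (SE 0.894, limma adjusted p = 0.404), so a change of the pnr difference with orientation was not shown.

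The transcript of grn was near the reference in wildtype and below it in the mutant. Wildtype ratios had a lowest value of -1.03, a median of -0.18 and a highest value of 1.10, with 3 samples on each side of 0. Mutant ratios had a lowest value of -2.29, a median of -1.75 and a highest value of -1.14, all below 0. The groups did not overlap for grn, and they did for the other 5 genes. Of all rows 2.52% had every mutant value below every wildtype value, and 3.48% had groups that did not overlap in either direction. The means were -0.07 ± 0.78 and -1.69 ± 0.44 (SD, n = 6 each), and the fitted difference was -1.61 (SE 0.367), 3.06-fold lower in the mutant. The Cy3 arrays gave -1.43 and the Cy5 arrays -1.79.

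The transcript of GATAe, the midgut factor, spread more widely than those of pnr and grn. Its wildtype ratios had a lowest value of -2.93, a median of -2.40 and a highest value of 1.44. Wildtype replicates 5 and 6 stood at 1.44 and 0.62, above the reference, and the other wildtype samples lay between -2.93 and -2.13. The mutant ratios had a lowest value of -5.92, a median of -4.32 and a highest value of -0.60, and replicate 5 was the highest of them. The groups overlapped, with means of -1.43 ± 1.95 and -3.96 ± 1.83 (SD, n = 6 each) and a fitted difference of -2.53 (SE 0.873). Its neighbour srp, the blood cell and fat body factor, was above the reference in 5 of 5 wildtype samples and 4 of 5 mutant samples. The wildtype values of srp were 1.15, 1.39, 1.27, 1.37 and 0.96 on replicates 1, 2, 4, 5 and 6, and the mutant values were 0.38, 0.98, -0.07, 0.84 and 1.13 on replicates 1 to 5. Of the mutant samples, 3 lay below all wildtype values. The means were 1.23 ± 0.18 and 0.65 ± 0.49 (SD, n = 5 each), and the fitted difference was -0.52 (SE 0.264). The 3 adjacent genes of 3R thus had differences of both signs, -0.52 for srp, -2.53 for GATAe and 2.20 for pnr.

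The cofactor gene ush was above the reference in 6 of 6 wildtype and 5 of 6 mutant samples. Wildtype ratios had a lowest value of 0.16, a median of 1.14 and a highest value of 1.30, and mutant ratios had a lowest value of -0.25, a median of 0.40 and a highest value of 0.93. The means were 0.96 ± 0.44 and 0.42 ± 0.45 (SD, n = 6 each), and the fitted difference was -0.53 (SE 0.259), with overlapping groups. So ush and pnr, partners at the protein level, had differences of opposite sign.

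The ratios of GATAd separated the arrays by dye orientation. Its wildtype values were 4.60 and 3.45 on replicates 1 and 3, with the cells in Cy3, and -0.52, -0.79 and 1.76 on replicates 4 to 6, with the cells in Cy5. Its mutant values were 5.90, 2.36 and 2.12 in Cy3 and 0.69, 0.26 and 0.31 in Cy5. Every Cy3 value lay above every Cy5 value, and the share of all rows separated in this way was not counted. The fitted difference of Cy5 minus Cy3 was -3.41 (SE 0.718, limma adjusted p = 0.0195). GATAd was 1 of 6 members past the threshold of 0.05 for orientation, where 11.0% of all rows passed. The call was lost without wildtype replicate 1 (-3.13, adjusted p = 0.0510) and with exact zeros kept as ratios (-2.79, adjusted p = 0.134). The genotype difference of GATAd was -0.10 (SE 0.718), the smallest in size of the 6, and its sign changed between orientations, with -0.57 in Cy3 and 0.27 in Cy5, and under median centring (0.08). For the change of the genotype difference with orientation, 0 of 6 members passed in limma, where 0.416% of all rows passed. An unadjusted limma p under 0.05 was seen for 0 of the 6 members and for 1280 of 8165 rows.

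**Figure D1:**
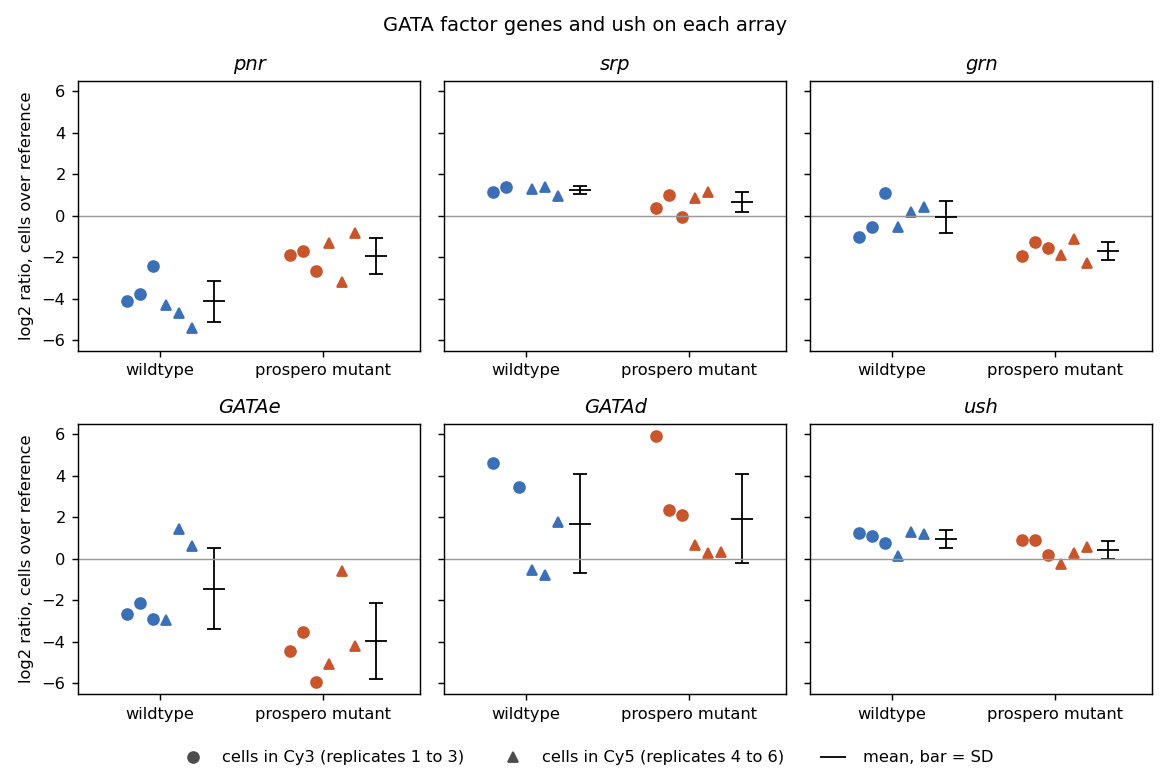
Log2 ratio of cells over reference (vertical axis) on each wildtype (blue) and prospero mutant (orange) array for the 6 genes, with circles for cells in Cy3, triangles for cells in Cy5, and a black bar for the mean and SD. For grn all mutant values, at most -1.14, lie below all wildtype values, at least -1.03, and for GATAd the circles lie above the triangles in both groups.

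**Figure D2:**
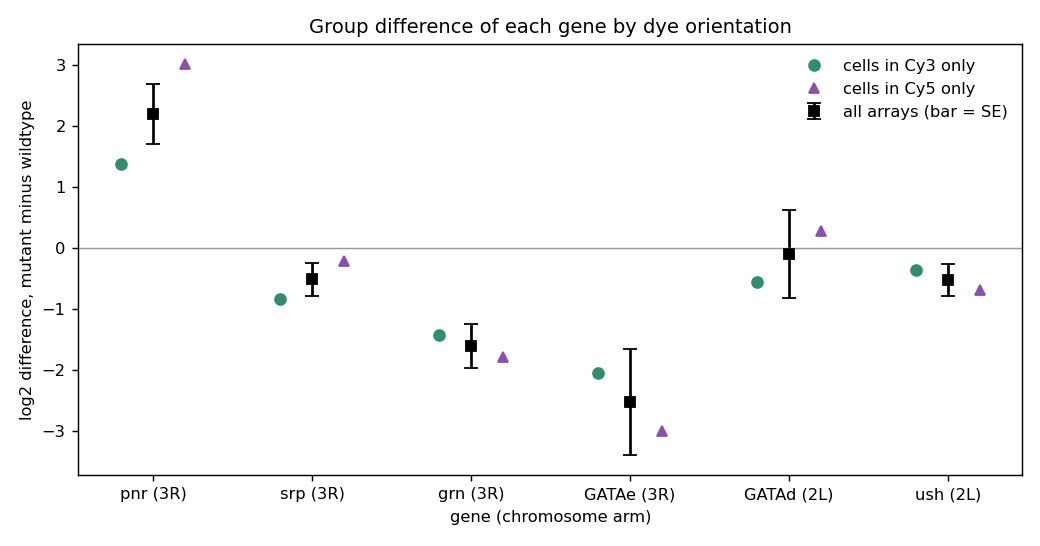
Log2 difference of mutant minus wildtype (vertical axis) for each gene, with the chromosome arm in brackets, from all arrays (squares, bar = SE) and from the arrays of 1 dye orientation (circles for Cy3, triangles for Cy5). The difference of pnr is above 0 and those of srp, grn, GATAe and ush are below 0 in both orientations, while that of GATAd changes sign.

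Of the 6 genes, pnr (higher) and grn (lower) were among the rows past the threshold between mutant and wildtype, as were 4.95% of the 8165 rows. Nothing is read from this count, because the family was chosen from the same comparison. Neither gene stayed past the threshold without wildtype replicate 5 or 6 or mutant replicate 1, 4 or 6, with exact zeros kept, with the replicate number as a block, or within 1 dye orientation, and grn was also lost after quantile normalization. Leaving out any single array kept the sign of every member but GATAd. The difference then ran from 1.89 to 2.51 for pnr, from -1.83 to -1.35 for grn, from -3.07 to -2.09 for GATAe, from -0.65 to -0.38 for srp and from -0.67 to -0.42 for ush, and for GATAd from -0.55 to 0.25. Over all rows the median difference was -0.13, which moved to 0.08 once every array had been centred on its own median. The differences of srp and ush then became -0.30 and -0.32. The animals called wildtype carried a balancer of chromosome 3 and the mutants did not. The balancer and the loss of prospero can therefore be told apart for no gene. This covers pnr, srp, grn and GATAe on 3R, the chromosome of the balancer, and also GATAd and ush on 2L. The same holds for all genes named further below, among them caup and HGTX on 3L and SPARC and zfh1 on 3R. Of 1725 tested 3R rows 2.43% were higher and 3.36% lower in the mutant, and of 1315 rows of 3L 1.75% and 4.18%. Of 1287 rows of 2L, where GATAd and ush lie, 1.40% were higher and 2.64% lower.

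The mean over both groups and both dyes asks how the nerve cord cells compare with the whole embryo, which the choice of the family did not use. Against the reference pnr was lowest, at -3.03 (SE 0.247, limma adjusted p = 3.87e-07), followed by GATAe at -2.69 (SE 0.436, adjusted p = 0.000125) and grn at -0.88 (SE 0.184, adjusted p = 0.000874). Above the reference were GATAd at 1.99 (SE 0.359, adjusted p = 0.000396), srp at 0.94 (SE 0.129, adjusted p = 8.08e-05) and ush at 0.69 (SE 0.129, adjusted p = 0.000396). These are ratios to the whole embryo and give no order of abundance between genes. All 6 members passed, and so did 78.1% of all rows, 41.0% above and 37.1% below, so the count says nothing particular about the family. The 6 calls held without each single array and after median centring, and they were not fitted within 1 dye orientation. With cells in Cy3, GATAd had means of 4.03 ± 0.81 (SD, n = 2, wildtype) and 3.46 ± 2.12 (SD, n = 3, mutant). In Cy5 its means were 0.15 ± 1.40 and 0.42 ± 0.24 (SD, n = 3 each), so its place above the reference rested mainly on the Cy3 arrays. The reference was 1 kind of RNA, and its own spread is not in these p-values.

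RNA of a pool falls both when fewer of its cells express a gene and when each cell holds less, and these cannot be told apart here. Markers of the tissues in which GATA factors act were set beside the members. The epidermal, tracheal and amnioserosa list, for the tissues of pnr, had 11 genes, of which 9 were on the array and 6 were tested. In limma 0 of them passed between mutant and wildtype, with 3 at an unadjusted p under 0.05, as were 2111 of all 8165 rows. The list median per array ran from -2.89 to -2.50 in wildtype and from -3.59 to -1.72 in the mutant, and shg and btl, the epithelial and tracheal markers, had no ratio on any array. Higher in the mutant without passing were grh, an epidermal factor that neuroblasts also express (1.81, adjusted p = 0.0548), peb, an amnioserosa factor (1.23, adjusted p = 0.0902), and Ance (0.47, adjusted p = 0.578). The dorsal T-box genes Doc1, Doc2 and Doc3 had differences of -0.34, -1.15 and -0.21, with adjusted p from 0.107 to 0.881. The part of such cells in the pnr difference was not tested.

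Neural markers also moved with the arrays. The neuron list had medians of 2.66, 2.16 and 2.19 on wildtype replicates 4 to 6 and from -0.07 to 0.79 on wildtype replicates 1 to 3, against -1.88 to 0.40 in the mutant. The neuroblast and ganglion mother cell list had medians of -0.61, -0.87 and -1.36 on wildtype replicates 4 to 6, from 0.88 to 1.41 on wildtype replicates 1 to 3 and from 0.52 to 1.89 in the mutant. Wildtype replicates 4 to 6 were also those with the lowest pnr ratios, and they include the pair with the highest GATAe ratios. The dye orientation and this difference in markers go together in wildtype, and their part in the values of pnr and GATAe was not tested.

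Partners, regulators and tissue genes of the GATA factors were examined in 7 lists, against a background of 1.58% of all rows higher and 3.37% lower in the mutant. Of all 8165 rows, 2111 had an unadjusted limma p under 0.05. After median centring the split of all rows turned from 129 higher and 275 lower to 423 higher and 221 lower. Of 17 tested genes of the Dpp pathway, which acts upstream of pnr, and of its dorsal targets, 0 rose, 1 fell and 16 did not pass, with a median of -0.21 against -0.13 for all rows. The 1 was cv-2, which encodes a BMP-binding protein, from -0.43 ± 1.68 (SD, n = 6) to -2.16 ± 1.18 (SD, n = 5), with a fitted difference of -1.96 (SE 0.445, adjusted p = 0.0349). Its call was lost in 6 of 12 omissions of a single array, namely wildtype replicates 4, 5 and 6 and mutant replicates 1, 4 and 6. Of 7 proneural and dorsal thorax genes, 0 rose and 1 fell, caup, an Iroquois homeobox gene, from -1.48 ± 0.47 to -3.62 ± 0.89 (SD, n = 6 each), a difference of -2.14 (SE 0.380, adjusted p = 0.0143). The median of that list was 0.23. Among 8 tested cofactors and antagonists of GATA factors 0 passed in limma and 0 had an unadjusted p under 0.05, with differences from -0.97 to 1.13 and a median of 0.04. Chi, which encodes the LIM-binding adaptor that works with Pannier in the thorax, differed by -0.29 (SE 0.311, adjusted p = 0.599; chosen after its values were seen).

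The tissues of srp and GATAe were described by the hemocyte and endoderm lists. Of 18 tested hemocyte and fat body genes, 2 rose, 0 fell and 16 did not pass, with a median of 0.47 and 9 at an unadjusted p under 0.05. Over all 8165 rows that unadjusted count was 2111. Differences of both signs were present, from -1.66 (gcm2, adjusted p = 0.0734) to 1.45 (Ppn, adjusted p = 0.124). The genes gcm and gcm2 were also on the glia marker list, whose 4 tested genes had a median of -1.46. Of that list repo passed as lower (-2.05, adjusted p = 0.0237), and Gs2 went the other way (0.29, adjusted p = 0.871). The part of glial cells in the gcm2 value was not tested. SPARC, a basement membrane glycoprotein gene, rose from 0.72 ± 0.68 to 2.10 ± 0.21 (SD, n = 6 each; difference 1.37, adjusted p = 0.0158), and Pvr, the receptor gene for blood cell growth factors, rose from -2.28 ± 0.47 to -0.99 ± 0.39 (SD, n = 6 each; difference 1.29, adjusted p = 0.0239). The call for Pvr was lost without wildtype replicate 5, mutant replicate 4 or mutant replicate 6. These rises stood beside a difference of -0.52 for srp. In the marker list of the same tissue, the median per array ran from -0.36 to 0.96 in wildtype and from -0.30 to 1.40 in the mutant, and NimC1, a marker of phagocytic hemocytes, had no ratio on any array. Of 8 tested endoderm and midgut genes, 0 passed in limma and 1 had an unadjusted p under 0.05, with a median of -0.44 and differences from -0.96 to 0.07. The difference of GATAe, -2.53, lay outside that range. In the gut and yolk marker list, with 6 genes on the array and 2 tested, the median per array ran from 0.13 to 2.57 in wildtype and from -0.59 to 1.35 in the mutant. It was 0.50 and 1.70 on wildtype replicates 5 and 6, the samples with GATAe above the reference, and 2.57 on wildtype replicate 1, where GATAe was at -2.67.

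Heart and motor neuron genes, set beside pnr and grn, held falls. Of 8 tested cardiac mesoderm genes, 0 rose and 1 fell, the T-box gene H15, from -1.62 ± 1.23 to -3.89 ± 0.66 (SD, n = 6 each; difference -2.28, adjusted p = 0.0255), and the list median was -0.53. Its call was lost without wildtype replicate 5, mutant replicate 4 or mutant replicate 6. Of 8 mesoderm and muscle markers, 3 were on the array and tested, and their median per array ran from -0.38 to 0.74 in wildtype and from -2.45 to -0.43 in the mutant. The lowest wildtype median and the highest mutant median thus lay close together, and bap had 4 ratios per group. The FGF receptor gene htl fell by 1.78 (adjusted p = 0.0470), twi differed by -1.07 and bap by -0.72 (adjusted p = 0.0825 and 0.298). The call of htl was lost in 11 of 12 omissions of 1 array, all but that of mutant replicate 3, in 7 of 9 other settings and in either dye orientation alone. The part of mesodermal cells in these values was not tested. Of 9 tested motor neuron factors and guidance genes, 0 rose, 2 fell and 7 did not pass, with a median of -0.74. HGTX, the Nkx6 homeobox gene of motor neurons, fell from 1.20 ± 0.75 to -0.93 ± 0.45 (SD, n = 6 each; difference -2.13, SE 0.355, adjusted p = 0.0116). The zinc finger homeobox gene zfh1 had a difference of -1.06 (SE 0.258, adjusted p = 0.0395), and 9 of 12 omissions ended its call, all but those of wildtype replicates 2 and 6 and mutant replicate 3. These falls stood beside the lower grn ratios in the mutant. Of 6 tested neuron markers 3 passed as lower, nSyb, VAChT and ChAT, with a list median of -2.62. The markers brp (-2.47, adjusted p = 0.0894), fne (-0.29, adjusted p = 0.777) and elav (0.14, adjusted p = 0.84) did not pass. Except for H15 and cv-2, each call named from the 7 lists was lost within either dye orientation alone, 3 arrays against 3. H15 and cv-2 lost theirs in Cy3.

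**Figure D3:**
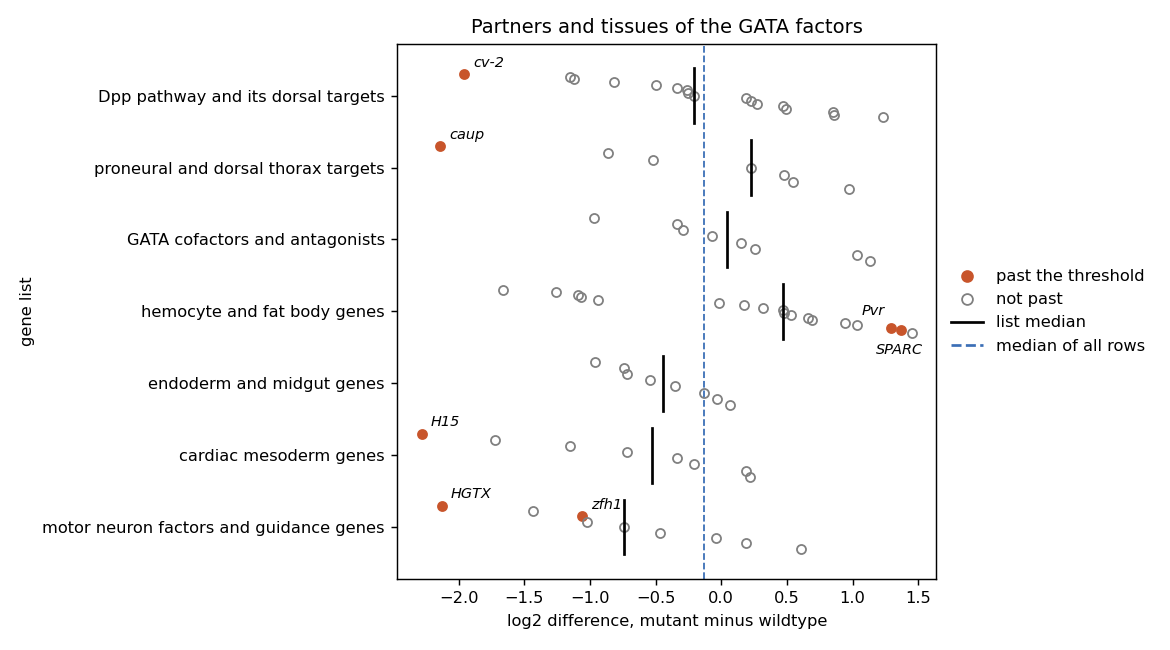
Log2 difference of mutant minus wildtype (horizontal axis) for each tested gene of the 7 lists (vertical axis), filled where the gene passed the threshold, with the list median as a black line and the median of all rows, -0.13, as a dashed line. The motor neuron list has its median at -0.74 and the hemocyte and fat body list at 0.47.

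The genes whose ratios ran most closely with each member were taken as the 3 with the highest Pearson r among the genes that shared at least 10 arrays with it. The arrays share the groups, the dyes and the reference, so r is a description and part of it is the group difference. For pnr they were CG2812 (r = 0.936), CG9175 (0.922) and SERCA, the calcium pump gene (0.913), over 12 arrays and among 6691 genes. With the group means removed, r was 0.860, 0.908 and 0.784. For grn they were Tsp86D, a tetraspanin gene (0.946, 10 arrays), sff, a kinase gene (0.937, 12 arrays), and CG13995 (0.931, 11 arrays). Removing the group means brought these to 0.730, 0.811 and 0.795. For GATAe they were CG5335, CG13284 and CG3987 (0.956, 0.950 and 0.938, 12 arrays). For GATAd they were Strip (0.943, 10 arrays), Cpr57A (0.936, 11 arrays) and pyd (0.927, 11 arrays), and for ush GstD10 (0.943, 11 arrays), CG9759 (0.925, 10 arrays) and nAChRalpha5 (0.914, 11 arrays). For srp they were yellow-d, CG13063 and CG8854 (0.938, 0.915 and 0.908, 10 arrays). No member was among the 3 closest genes of another member.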

How the data were processed

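RNA of 12 cell pools was measured against a common reference on 2-colour arrays, 6 per group. Per the labels' protocols, cDNA of both channels was amplified by PCR before labelling. The authors deposited log2 ratios for 14569 probes. How the arrays were scanned, background-corrected and normalized is not given in the sources used here. Base 2 was read from the values, since signals of 1 channel lay at even steps on 8 of 11 arrays for base 2 and on 0 for base e or 10. Each deposited column had a median of 0, and 22.1% to 38.6% of values were exactly 0. An exact 0 and a value beyond 11 in size were set to missing, and 12657 probes with 1 gene symbol in the platform annotation were averaged per gene. No spot intensities were used, so signal over background is unknown and the number of arrays limits the precision. A row needed 4 ratios in each group. Group and dye were fitted with limma 3.58.1 in R 4.3.3 on 8165 rows, with Benjamini-Hochberg adjustment over all rows and a threshold of 0.05. The mean over groups and dyes was tested against 0, and a second fit added the interaction of group and dye. The fits were tested on simulated data.

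The members, lists and tests were chosen with earlier results of these data known. Named were all members, prospero, list genes past the threshold (at most 4 per list by p) and the 3 genes closest to each member. Alternatives changed the missing values, centring, normalization, dye term, filter, probe averaging, replicate block and arrays. Gene order came from the RefSeq table of Release 6. Coordinates are left out, as the build used for the array is not stated here.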

Additional observations from a re-analysis of the deposited data

Results flagged for a closer look

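GATAd stood at 5.90 on mutant replicate 1, where the next mutant value was 2.36, a gap of 0.628 of the range of the group. HGTX stood at -0.30 on wildtype replicate 4, where the next wildtype value was 1.35, a gap of 0.832 of the range. Both samples lay farther from their group than Dixon's 95% limit for 6 values, which chance passes in about 1 of 20 groups. That limit takes the values as 1 set, whereas the mutant GATAd values differed by dye orientation, so for GATAd the limit is a rough guide.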

How the results depend on the processing

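The 6 ratios over the reference kept their direction and their calls under all alternatives run, as did the prospero difference. Fits within 1 dye orientation were run for the differences between mutant and wildtype, not for the ratios over the reference. The count of rows past the threshold between mutant and wildtype, 404, was 132 with zeros and one-channel values kept, 644 after median centring, 187 without a dye term, 106 with the replicate block and 2 with the cells in Cy3 only (1087 at an unadjusted p under 0.05). Without single arrays it ran from 117 to 549, and it was 144 and 152 when wildtype replicates 5 and 6 were left out in turn, and 267, 117 and 161 for mutant replicates 1, 4 and 6. The split of 275 lower and 129 higher rows became 178 and 313 after quantile normalization. The count for dye orientation, 896, was 504 with zeros kept and ran from 381 to 810 without single arrays, with wildtype replicates 1, 3, 4, 5 and 6 and mutant replicates 1 and 6 each moving it by over 1.5 times. The count for the interaction, 34, was 74 with zeros kept, 22 with one-channel values held at 8, 77 after quantile normalization and 0 with the replicate block (1381 at an unadjusted p under 0.05), and it ran from 0 (without wildtype replicate 1, with 939 at an unadjusted p under 0.05) to 344 (without wildtype replicate 3), each omission moving it by over 1.5 times. The cause of these shifts was not tested. Deviations of same-numbered samples from their group means correlated at 0.030 to 0.253, below 0.1 for numbers 5 and 6. The same-numbered mutant was the closest for wildtype replicates 1, 2 and 4, and not for 3, 5 and 6. With the dye means also removed it was the closest for replicates 1 and 2 only. The numbers were not taken as pairs in the main fit, and the block is given as an alternative. Besides htl, which lost its call in most settings, SPARC, H15, zfh1 and cv-2 lost their calls under the block (adjusted p from 0.0514 to 0.0687), as did pnr and grn. With zeros and one-channel values kept, cv-2, Pvr, H15, zfh1, pnr and grn lost theirs. The call of cv-2 was also lost with values held at 8, those of cv-2 and zfh1 without a dye term, those of H15, zfh1 and grn after quantile normalization, and that of zfh1 after median centring (-0.86, adjusted p = 0.0837).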
